A study of Mus musculus with 4 samples.

Results

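The 68 genes described here encode the initiation and elongation factors of translation. They are the rows of the count table whose symbol starts with Eif and a digit from 1 to 6, or with Eef and 1 or 2. They are 68 of 52550 rows, after 7 of 75 matching rows named as pseudogenes were dropped. The study asked which transcripts the m6A reader YTHDF2 holds in the newborn mouse retina, and used RNA immunoprecipitation (RIP), in which an antibody recovers a protein together with its RNA for sequencing. All libraries came from retinas of wild type C57BL/6 mice at postnatal day 0, dissociated with papain. Each of 2 replicates gave an input library of RNA from before the pulldown and a library of RNA eluted after the anti-YTHDF2 pulldown, made with a stranded kit. A control IgG pulldown, named in the study's methods, was not analysed here.

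Translation starts when the eIF4F complex, with the cap-binding protein eIF4E, the scaffold eIF4G and the helicase eIF4A, brings a capped mRNA to a small ribosomal subunit that carries eIF3 and the eIF2-bound initiator tRNA. The start codon is then chosen, the large subunit joins, and eEF1 and eEF2 carry out the cycles of tRNA delivery and translocation. N6-methyladenosine (m6A) is a mark on mRNA that often lies in GGACT and related sequences, and YTHDF2 is known for binding m6A and recruiting the machinery that shortens poly(A) tails.

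A fold change below is RIP over input on a log2 scale, with its standard error, from edgeR's quasi-likelihood test over 13632 genes. Values per library are TMM-scaled counts per 1000000 (CPM). A transcript is called at an adjusted p below 0.05, or, by the study's limits, as enriched (1 or more) or depleted (-1 or less) on the log2 scale where its unadjusted p was below 0.05. All values are relative to the other transcripts of the same library, so a lower value in RIP is a smaller share of the recovered RNA and not a measure of unbound RNA.

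The inputs held 39499994 and 36236531 counts, and the pulldowns 19530226 and 24903212. Of these, 2083594 to 4175459 per library fell on protein-coding genes. In the inputs 55.0 to 55.5% of counts, and in RIP 85.3 to 87.8%, lay on a pair of ribosomal RNA genes, and mitochondrially encoded genes took 18.6 to 19.4% against 0.522 to 0.578%. The summed level of 6 retinal progenitor markers was 506 to 720 per 1000000 total counts in the inputs and 527 to 728 in RIP, and that of 6 retinal ganglion cell markers was 37.1 to 40.5 against 19.4 to 27.4. Of 5 lens markers, 4 were at 0 in both inputs. The inputs differed from each other along GC content. For Eif3a, Eif2s2 and Eif5b the value without input replicate 2 is given below.

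Most translation factor transcripts were level between RIP and input or lower in RIP. Of 68 members, 63 passed the low-count filter, and of these 8 fell at an adjusted p below 0.05, or 12.7%, where 9.78% of all tested genes did. They were the eIF3 subunits Eif3g, Eif3e, Eif3k and Eif3h, the initiator tRNA factor Eif2a, the scanning factor Eif1, the elongation factor Eif5a and the eEF1 exchange factor subunit Eef1b2, and the fall ranged from 1.55 to 2.38 in size on the log2 scale. No member rose by edgeR's adjusted p, where 3.48% of all tested genes did. Only Eif4b had an unadjusted p below 0.05 among members above 0, and DESeq2 and limma also called 0 members higher.

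By the study's limits 16 members were depleted, which is 25.4% against 17.2% of all tested genes, and 0 were enriched against 9.43%. The 63 tested members had a median log2 fold change of -0.54, beside -0.05 for all tested genes and 0.04 for tested protein-coding genes. Of them 43 lay below 0, or 68.3% against 51.9% of all genes. Both RIP libraries lay below both inputs for 28 members (44.4%, background 31.3%) and above both for 10 (15.9%, background 29.6%), and the groups overlapped for 25.

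These counts moved with single libraries. Without input replicate 1 the test called 21 members lower and 7 higher, and without input replicate 2 it called 24 lower and 6 higher. Without RIP replicate 1 or RIP replicate 2, when the spread came from the inputs alone, it called 0 in either direction. The 8 called members stayed called without either input and kept their direction without either RIP library. With smooth trends on transcript length and GC content taken out together, 1 member was called lower, Eef1b2. With the replicate block as well, Eef1b2, Eif2a, Eif3a, Eif4g3 and Eif5b were called lower and Eif3i higher.

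**Figure D1:**
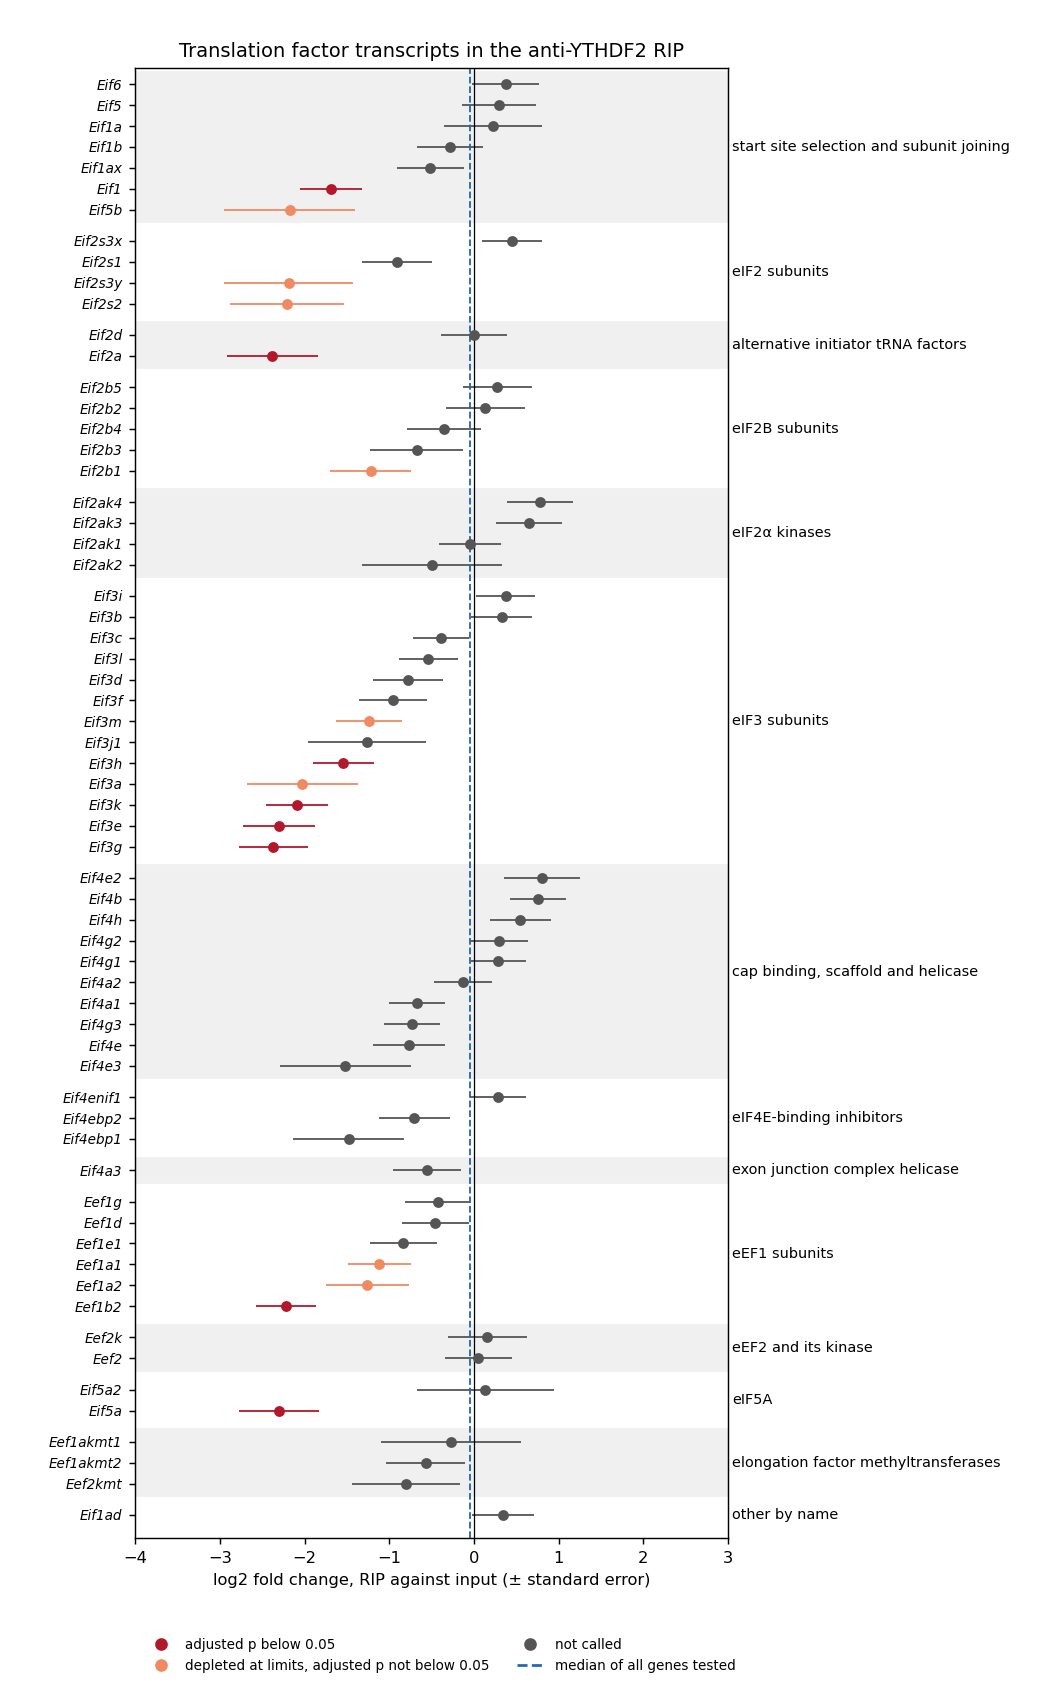
Log2 fold change of RIP against input (x axis) with its standard error for the 63 tested members, grouped by role. Red points passed an adjusted p below 0.05, orange points were depleted by the study's limits alone, and the dashed line is the median of all tested genes. The 8 red points lie from -2.38 to -1.55, the eEF1 subunits lie below 0 in this fit, and the highest member is at 0.80.

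The sequence GGACT was searched on the transcript strand of the longest protein-coding transcript of each gene, because it is the best known form of the m6A consensus. It was present in 58 of the 63 tested members. Of all tested protein-coding genes 6.92% lacked it and of the members 7.94%, namely Eif3g, Eif3k, Eif2s2, Eif2s3y and Eef1a1. In the main fit these 5 were at -2.37, -2.09, -2.21, -2.18 and -1.12 on the log2 scale, in that order. Eif2s2 was at -0.82 without input replicate 2, and Eef1a1 at -0.90 without input replicate 1. With the length and GC trends taken out Eef1a1 was at -0.52 and Eif3k at -0.70, and the others stayed below -1. With the trends on the longest annotated transcript Eif3k was at -1.56. The share of all genes without GGACT that lay below -1 was not counted. For genes of like length without and with GGACT the medians were -1.87 and -1.70 at the length of Eif3k, -1.39 and -1.23 for Eif3g, -0.61 and -0.45 for Eif2s3y, -0.69 and -0.50 for Eef1a1, and -0.35 and -0.13 for Eif2s2. Transcripts within 10% of their length lacked GGACT in 25.4% of cases for Eif3g, 28.5% for Eif3k, 7.09% for Eif2s2, 11.9% for Eif2s3y and 12.3% for Eef1a1. The match nearest the end of the coding sequence is shown for 3 members that were lowest and 3 that were highest in RIP and matched within 1 exon, as 25 bases of GENCODE reference transcript on GRCm38 with GGACT in capitals.
Eif2a, coding sequence, chr3:58548509-58548533, plus strand: tttgactttgGGACTggtcctcgca
Eif5a, 3' UTR, chr11:69917244-69917268, minus strand: gcccttggctGGACTcctattcaaa
Eif3e, coding sequence, chr15:43261117-43261141, minus strand: cgtgtctggaGGACTtcattgagaa
Eif4e2, 3' UTR, chr1:87238017-87238041, plus strand: cctggaagacGGACTctgctaaaca
Eif2ak4, 3' UTR, chr2:118475088-118475112, plus strand: aaatggacagGGACTtatactgaaa
Eif2ak3, 3' UTR, chr6:70904342-70904366, plus strand: ccacagcggtGGACTcagattttat
The 3 higher members had this match in the 3' UTR, 220, 43 and 69 nt past the coding end, and they hold 6, 4 and 9 matches in all. The 3 lower members hold 3, 2 and 1. Eif4b, at 0.75, was passed over because its 25 bases were not within 1 exon. Its match lay in the coding sequence, as did that of Eif4h, at 0.55. The region of the match was not compared over all members. Longer transcripts hold more matches, and a match says nothing of whether the site is methylated. Across the 63 members the number of matches and the log2 fold change had a Spearman correlation of 0.28, and matches per base one of 0.11, a description over genes that share the same 4 libraries.

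The eIF3 complex, which coats the small subunit and receives the mRNA, held 4 of the 8 called members. These are 4 of its 13 tested genes, where 9.78% of all tested genes were called lower. The 13 genes had a median log2 fold change of -1.24, with 6 depleted by the study's limits (background 17.2%, and 41.7% for transcripts under 2000 nt). Both RIP libraries lay below both inputs for 10 of them (background 31.3%). The median transcript length of the group was 1899 nt, and its median fold change was -0.64 with the length and GC trends taken out. Eif3g (ENSMUSG00000070319, chr9:20894349-20898623 on GRCm38), an RNA-binding subunit that takes part in scanning, was at 20.3 and 11.4 CPM in the inputs and 3.13 and 2.99 CPM in RIP. Both RIP libraries lay below both inputs. Its fold change of -2.37 ± 0.41 (SE, n = 2 per group) had an edgeR adjusted p of 0.00829. With the trends out it was -1.35 (edgeR adjusted p = 0.102).

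Eif3e (chr15:43250058-43282719) was at 11.3 and 16.1 CPM in the inputs and 2.02 and 3.53 CPM in RIP, a change of -2.30 ± 0.42 (edgeR adjusted p = 0.0109). It encodes a subunit with a PCI domain, the fold through which several eIF3 subunits assemble. Eif3k (chr7:28971372-28981864), a small subunit at the edge of the complex, was at 31.8 and 20.8 CPM against 6.34 and 6.03 CPM, a change of -2.09 ± 0.37 (edgeR adjusted p = 0.0092). The groups did not overlap in either gene. Eif3h (chr15:51786558-51865523), one of the subunits with an MPN domain, changed least of the called subunits, from 61.3 and 40.9 CPM to 18 and 17 CPM, or -1.55 ± 0.36 (edgeR adjusted p = 0.0265). With the trends out none of these 3 was called, at -1.07 for Eif3e, -0.70 for Eif3k and -0.64 for Eif3h. The results for Eif3e and Eif3k depended on the transcript chosen. With the trends on the longest annotated transcript Eif3e was called lower, Eif3k was at -1.56 (edgeR adjusted p = 0.0539) and Eif3h at -0.58.

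The largest subunit, Eif3a, shows how the inputs limit such values. It was at 8.61 CPM in input replicate 1 and 43.1 CPM in input replicate 2, against 7.02 and 5.65 CPM in RIP. Its change of -2.03 ± 0.66 was depleted by the study's limits (edgeR adjusted p = 0.0771, and 0.0215 with the replicate block), but without input replicate 2 it was -0.45. Eif3m was steadier, at 5.64 and 6.09 CPM against 2.18 and 2.79 CPM, a change of -1.24 ± 0.38 (edgeR adjusted p = 0.0684). Without the length and GC trends it was -0.05. Eif3b, which carries the RNA recognition motif that scaffolds the complex, and Eif3i, its beta-propeller partner, were the eIF3 subunits above 0, at 0.33 ± 0.36 and 0.37 ± 0.35. With the trends out Eif3i was at 1.45 (edgeR adjusted p = 0.0649), and with the replicate block as well it was called higher, at 1.53 (edgeR adjusted p = 0.029). Those fits used its transcript of 1123 nt, where its longest annotated one has 2323 nt. With the trends on the longest annotated transcript, 0 members were called higher and 0 were enriched. That version was not run with the replicate block. Eif3f, Eif3d, Eif3l, Eif3c and Eif3j1 lay from -1.26 to -0.39 and were not called.

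Of the genes for eIF2, the carrier of initiator tRNA, 2 of 4 were depleted by the study's limits (background 17.2%). None passed the adjusted p. The depleted genes, Eif2s2 and Eif2s3y, were 4.26 and 3.04 times higher in input replicate 2 than in input replicate 1. Eif2s2, the beta subunit, was at 5.10 and 21.7 CPM in the inputs and 3.88 and 1.91 CPM in RIP, a change of -2.21 ± 0.67 (edgeR adjusted p = 0.0639, and 0.00499 with the replicate block). Without input replicate 2 it was -0.82. Eif2s1, the alpha subunit whose phosphorylation slows initiation under stress, was at -0.91 ± 0.41 (edgeR adjusted p = 0.179).

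The gamma subunit is encoded by an X-linked and a Y-linked gene, and they moved apart. Eif2s3x was at 12.4 and 19.1 CPM in the inputs and 21.8 and 21.3 CPM in RIP, or 0.45 ± 0.36. Eif2s3y had 23 and 72 reads in the inputs and 9 and 6 in RIP, or -2.18 ± 0.76 (edgeR adjusted p = 0.0953). The X copy had 18 and 9.08 times the reads of the Y copy in the inputs and 61.1 and 85.5 times in RIP. This difference was not tested, and reads that match both copies could have been split between them.

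Eif2a (chr3:58525821-58557501), which encodes a factor that can bring initiator tRNA to the ribosome apart from eIF2, had the lowest fold change of all members. It was at 4.11 and 10.6 CPM in the inputs and 1.19 and 1.62 CPM in RIP, a change of -2.38 ± 0.54 (edgeR adjusted p = 0.0234), and with the trends out it was at -1.87 (edgeR adjusted p = 0.0927). It overlaps Serp1 on the opposite strand, whose counts were 233% of its own, and the strand setting of the counting is not given in the sources used here. Eif2d, the other such factor, had the same mean CPM of 3.94 in both groups.

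The 5 tested genes for eIF2B, the exchange factor that reloads eIF2, had a median of -0.35. Eif2b1, the regulatory alpha subunit, was depleted by the study's limits, from 4.86 and 3.15 CPM to 1.19 and 2.25 CPM, or -1.22 ± 0.47 (edgeR adjusted p = 0.127). With 1 library left out its fold change ranged from -1.65 to -0.72. Eif2b5, the catalytic subunit, was the highest of the group at 0.27 ± 0.41, and Eif2b3, Eif2b4 and Eif2b2 lay between them.

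Of the 4 kinases that phosphorylate eIF2 alpha none was called, and 2 lay above 0 and 2 below. Eif2ak4, which encodes the amino acid sensor GCN2, was at 2.88 and 4.37 CPM in the inputs and 6.50 and 5.95 CPM in RIP, a change of 0.78 ± 0.39 (edgeR adjusted p = 0.224). Eif2ak3, which encodes PERK of the endoplasmic reticulum stress response, was at 2.19 CPM in both inputs and at 3.73 and 3.16 CPM in RIP, or 0.65 ± 0.39 (edgeR adjusted p = 0.30). The groups did not overlap in these genes. Eif2ak1, for the heme-regulated kinase, was at -0.04 ± 0.36, and Eif2ak2, for the double-stranded RNA sensor PKR, at -0.50 ± 0.83 with 9 to 36 reads per library. The median of these 4 kinases was 0.30, and -0.13 with the length and GC trends taken out.

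The genes of cap binding, the eIF4G scaffolds and the helicases were the group nearest to the background of protein-coding genes. Its 10 tested members had a median of 0.08, 5 lay above 0 and 5 below, and none was called. Eif4b, the cofactor that stimulates the eIF4A helicase, was at 47.4 and 40.3 CPM in the inputs and 75.1 and 72.9 CPM in RIP, or 0.75 ± 0.33 (edgeR adjusted p = 0.167). Eif4e2, a cap-binding protein known for repressing translation, had the highest fold change of all members. It was at 25.2 and 10.3 CPM in the inputs and 31.2 and 30.7 CPM in RIP, or 0.80 ± 0.45 (edgeR adjusted p = 0.266). With 1 library left out its fold change ranged from 0.29 to 1.59. The RIP libraries stood together for both genes, whereas the inputs of Eif4e2 did not. Eif4h, another eIF4A cofactor, was at 0.55 ± 0.36.

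Eif4e, the main cap-binding protein, was at 9.99 and 17.7 CPM in the inputs and 10.3 and 6.03 CPM in RIP, so that the groups overlapped (-0.76 ± 0.42). Eif4e3, another cap-binding protein, was the lowest of the group at -1.52 ± 0.77 with 4 to 31 reads per library. Eif4g2, a scaffold that lacks the eIF4E-binding part, was the most abundant of the group, at 212 and 214 CPM in the inputs and 286 and 235 CPM in RIP (0.29 ± 0.34). Eif4a1, the main helicase, was at 39.8 and 35.6 CPM against 22.1 and 25.2 CPM (-0.67 ± 0.33, edgeR adjusted p = 0.211), and Eif4a2 at -0.13 ± 0.34. Both helicase genes host small nucleolar RNA genes with counts of their own. The pseudogene Eif4a-ps4 had 455, 349, 226 and 218 reads in the 4 libraries, so reads may be shared with it.

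Of the factors that restrain eIF4E, Eif4ebp1 was at -1.48 ± 0.65 (edgeR adjusted p = 0.171) and Eif4ebp2 at -0.70 ± 0.41. Eif4ebp2 was the more abundant, with 64.4 and 30.5 CPM in the inputs and 29.6 and 28.8 CPM in RIP. Eif4enif1, which carries eIF4E into the nucleus and into cytoplasmic granules, was at 12.8 and 10.8 CPM against 14.2 and 14.6 CPM (0.28 ± 0.33).

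Among the factors of start codon choice and subunit joining, Eif1 (chr11:100319885-100322096), which guards against wrong start codons, was called. It was at 69.2 and 54.1 CPM in the inputs and 15.7 and 22.5 CPM in RIP, a change of -1.69 ± 0.37 (edgeR adjusted p = 0.0205), and with the trends out it was at -0.80 (edgeR adjusted p = 0.249). Eif5b, the GTPase of subunit joining, was depleted by the study's limits on 1.47 and 9.76 CPM against 1.11 and 1.37 CPM, or -2.18 ± 0.78 (edgeR adjusted p = 0.101, and 0.0225 with the replicate block). That value rested on input replicate 2 and was -0.25 without it. Eif5, which triggers GTP hydrolysis on eIF2, was at 0.30 ± 0.44, and Eif6, which keeps free large subunits apart from small ones, was the highest of the group at 0.38 ± 0.40.

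**Figure D2:**
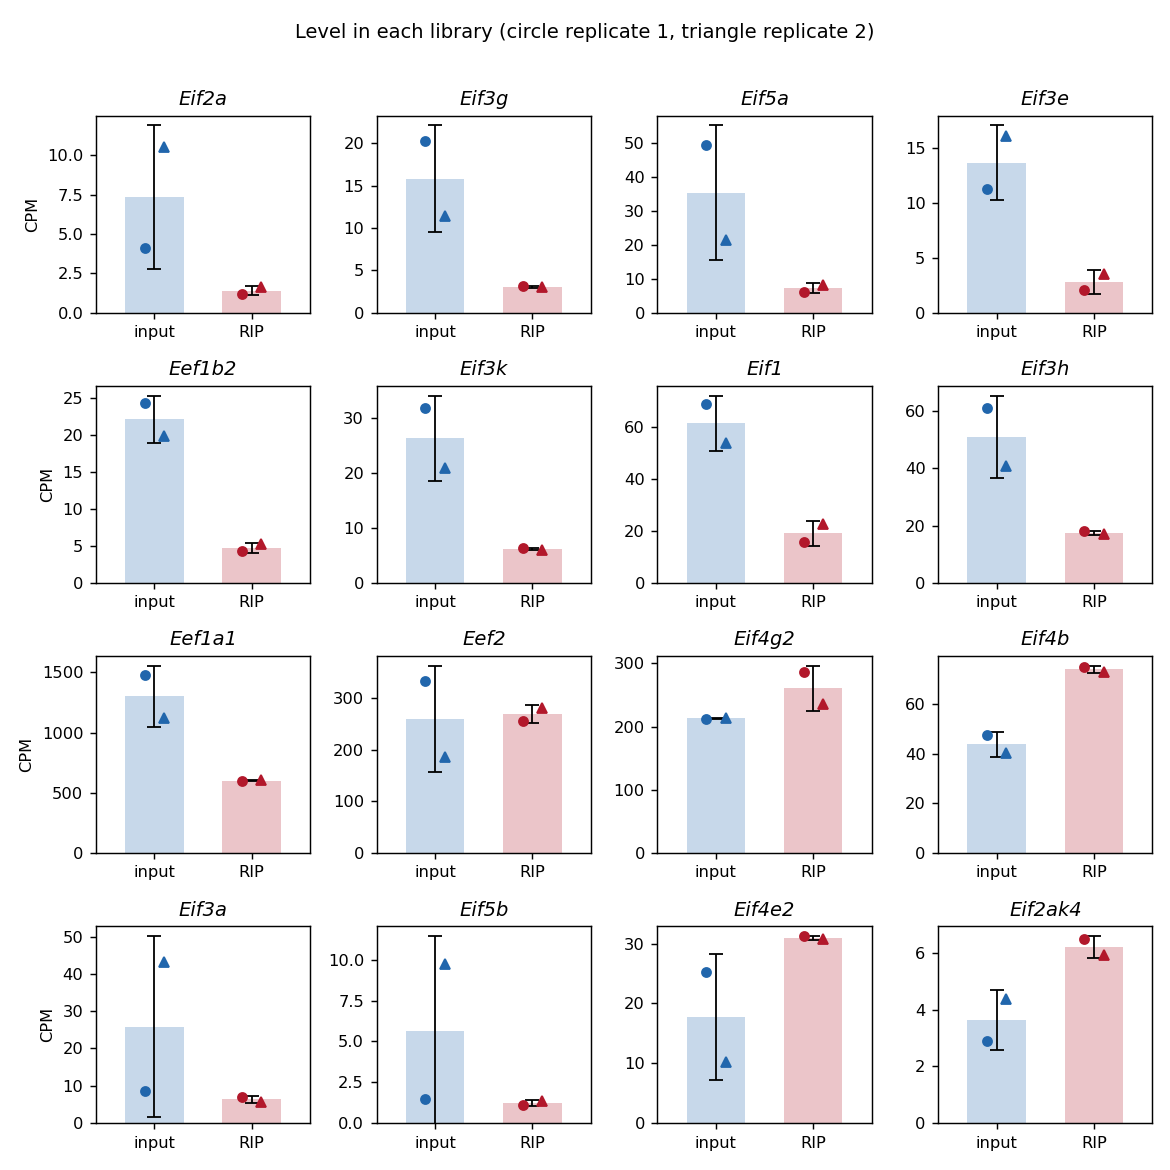
CPM (y axis, from 0) in the inputs and in RIP for the 8 called members, 4 abundant members and 4 further members, with bars at the mean, error bars of 1 SD (n = 2) and a point per library. RIP lies below both inputs in all 8 called members, whereas for Eif3a and Eif5b input replicate 1 lies near the RIP level.

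All 6 tested genes named for eEF1, the factor that delivers aminoacyl-tRNA, lay below 0 in the main fit, where 51.9% of all tested genes did. Their median was -0.98. Eef1g turned to 0.065 with the trends taken out and the replicate block, and to 0.020 without input replicate 1. Eef1b2 (chr1:63176825-63180486), an exchange factor subunit that recharges eEF1A with GTP, was at 24.4 and 19.8 CPM in the inputs and 4.28 and 5.24 CPM in RIP, or -2.22 ± 0.35 (edgeR adjusted p = 0.00597). It stayed called with the length and GC trends taken out, at -1.65 (edgeR adjusted p = 0.0429). With the trends not centred, so that their level was taken out too, it was at -1.54 and not called (edgeR adjusted p = 0.0541). The centring was chosen after values were seen. It overlaps Ndufs1 on the opposite strand, whose counts were 33.5% of its own and whose log2 fold change was 0.94.

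Eef1a1, the tRNA carrier itself, made up 50.2 and 48.7% of all member counts in the inputs and 34.8% in each RIP library. It was at 1482 and 1123 CPM in the inputs and 599 and 603 CPM in RIP, a change of -1.12 ± 0.37 (depleted by the study's limits, edgeR adjusted p = 0.0846). Per length it ranked 15 among tested protein-coding genes by mean input FPKM, where Eef2 ranked 95. Eef1a2, the copy of mature neurons and muscle, had 100 to 215 reads in the inputs and 41 and 55 in RIP (-1.26 ± 0.49, depleted by the study's limits, edgeR adjusted p = 0.129). With 1 library left out its fold change ranged from -1.73 to -0.58. The other exchange factor subunits were closer to the inputs, with Eef1g at -0.43 ± 0.38 and Eef1d at -0.45 ± 0.39. Eef1e1, a scaffold-associated protein of the same name series, was at -0.84 ± 0.40.

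Eef2, the translocation factor, did not share that direction. It was at 333 and 186 CPM in the inputs and 256 and 282 CPM in RIP, so that RIP lay between the inputs, at 0.05 ± 0.39. Its kinase Eef2k, which slows elongation, was at 0.16 ± 0.47. Eif5a (chr11:69916714-69921958), the hypusine-bearing factor that relieves stalled ribosomes, was called, with 49.3 and 21.3 CPM in the inputs and 6.10 and 8.23 CPM in RIP, or -2.30 ± 0.47 (edgeR adjusted p = 0.0161). With the trends out it was at -1.65 (edgeR adjusted p = 0.0898).

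Closely related genes did not always keep together, and differences between them were not tested. Eif1 had 5.60 and 6.09 times the reads of Eif1b in the inputs and 2.35 and 2.09 times in RIP. Eif4g1 had 1.04 and 0.979 times the reads of Eif4g3 in the inputs and 1.93 and 2.20 times in RIP, with fold changes of 0.29 ± 0.33 and -0.73 ± 0.33. With the trends out Eif4g1 was at -0.43 and Eif4g3 at -1.50 (edgeR adjusted p = 0.0522), and with the replicate block as well Eif4g3 was called lower, at -1.52 (edgeR adjusted p = 0.0308). In both pairs the ratios of the 2 replicates stood closer together than those of the groups. Eif5a had 149 and 7.87 times the reads of Eif5a2 in the inputs and 4.28 and 4.30 times in RIP, where the inputs disagreed because Eif5a2 had 11 and 93 reads in them. Eif1ax (-0.52) and Eif1a (0.23) overlapped between groups.

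Transcript length moved with the fold change across genes. The 22 tested members with a transcript under 2000 nt had a median of -0.95, beside -0.94 for all tested protein-coding genes of that length. Of these 22, 10 were depleted by the study's limits, or 45.5%, where 41.7% of genes of that length were. Of the 8 members called at the adjusted p, 7 are among the 22. The share of all genes of that length called at the adjusted p was not counted, so these 7 cannot be set against it. Over tested genes of any length 9.78% were called lower. None of the 22 was enriched, where 1.74% of genes of that length were. The members' share and median in this length class stood near those of all genes. The exception among the called members is Eif2a, at 2299 nt.

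In the longer classes the members' medians lay below those of all genes. Of 25 members from 2000 to 4000 nt, 4 were depleted (background 10.1%) and 0 enriched (background 7.59%), and their median was -0.35 beside 0.01 for all genes of that length. Of 16 members over 4000 nt, 2 were depleted (background 3.73%) and 0 enriched (background 18%), with a median of -0.27 beside 0.45. The 2 depleted long members are Eif3a and Eif5b, which rest on input replicate 2. Across the 63 members the Spearman correlation of fold change with length was 0.35, and across 11953 protein-coding genes 0.49. Its part in the members' values was not tested beyond the fit with the trends taken out.

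**Figure D3:**
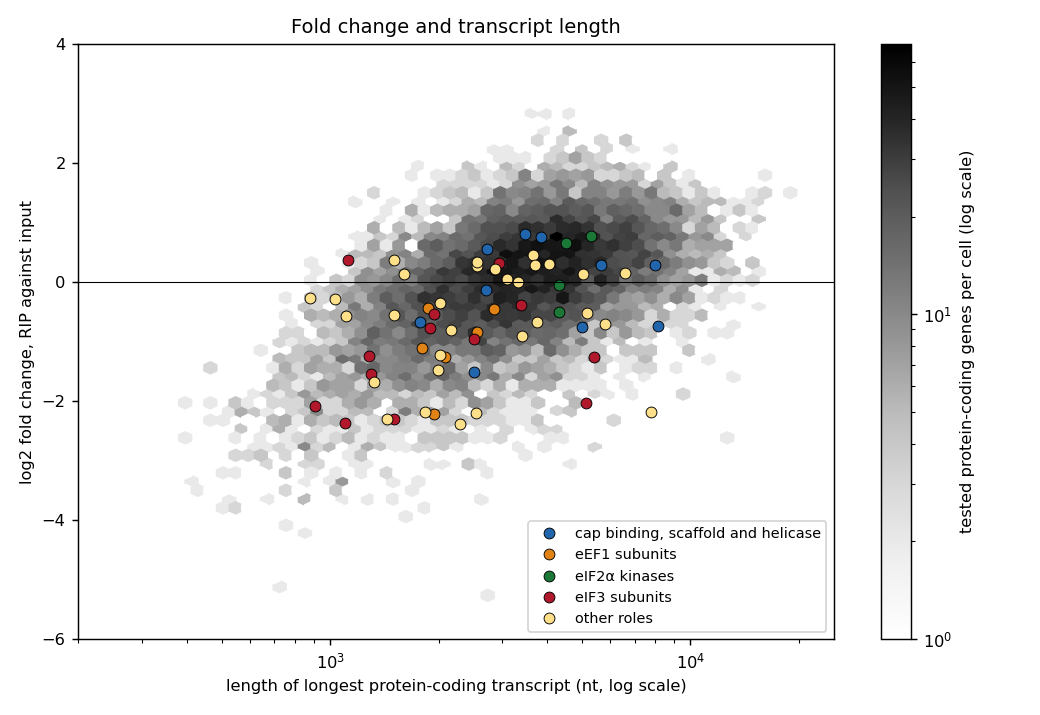
Log2 fold change of RIP against input (y axis) by length of the longest protein-coding transcript (x axis, log scale), with tested protein-coding genes as grey cells and the 63 members as coloured points. The grey cells rise with length, and the short members lie among them while most members over 4000 nt lie below their middle.

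The inputs differed from each other along GC content, for members as for other genes. Over the 63 members the ratio of input replicate 2 to input replicate 1 had a Spearman correlation of -0.77 with GC content, where the ratio of the RIP libraries had one of 0.07. Over all tested protein-coding genes these correlations were -0.60 and 0.01. Eif5a2 at 38.8% GC was 8.21 times higher in input replicate 2, Eif5b at 43.7% was 6.64 times higher, Eif3j1 at 42.5% was 5.46 times higher and Eif3a at 44.5% was 5.01 times higher. Eif3g at 55.8% GC stood at 0.562 times and Eif5a at 55.0% at 0.433 times. Which of the inputs is nearer to the tissue cannot be told apart with 2 replicates.

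**Figure D4:**
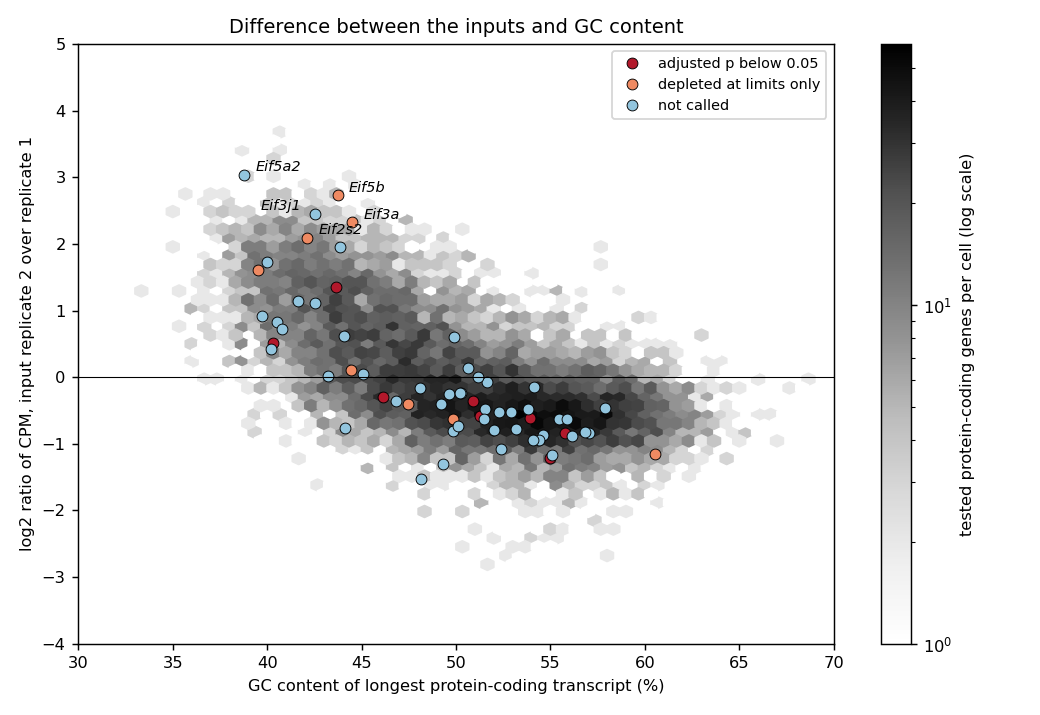
Log2 ratio of CPM in input replicate 2 over input replicate 1 (y axis) by GC content of the longest protein-coding transcript (x axis, percent), for tested protein-coding genes (grey cells) and the 63 members (points, coloured by call). The ratio falls with GC content, and Eif5a2, Eif5b, Eif3j1, Eif3a and Eif2s2 are the members highest above 0.

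The 5 members that were not tested had few reads or none. Eif4e1b, an oocyte cap-binding protein, Eef1akmt3, a methyltransferase of eEF1A, and Eif2c5, annotated as a noncoding RNA, had 0 reads in every library. Eif3j2 had 20 reads in RIP replicate 2 and 0 elsewhere, and Eif4ebp3 had 1 and 8 reads in the inputs and 0 and 3 in RIP. Of the tested members not described above, the methyltransferase genes Eef2kmt, Eef1akmt2 and Eef1akmt1 lay from -0.80 to -0.27, the helicase Eif4a3 of the exon junction complex was at -0.55 ± 0.40, and Eif1ad was at 0.34 ± 0.37. None of these was called, and their groups overlapped.

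Other genes of translation, from lists outside the naming rule, gave few calls. Of 59 tested, 1 rose (1.69%, background 3.48%) and 3 fell (5.08%, background 9.78%) at the adjusted p. By the study's limits 7 were enriched (11.9%, background 9.43%) and 8 depleted (13.6%, background 17.2%). With the length and GC trends taken out none of the 4 adjusted calls was left, and 1 gene was enriched and 5 depleted. Mtor, the kinase that restrains the eIF4E-binding proteins, rose from 267 and 269 reads in the inputs to 533 and 476 in RIP, by 1.37 ± 0.33 (edgeR adjusted p = 0.0294). Paip2, an inhibitor of poly(A)-binding protein, fell by 1.52 ± 0.36 (edgeR adjusted p = 0.028), and Mcts2, a partner in noncanonical initiation, fell by 2.53 ± 0.55 (edgeR adjusted p = 0.0204). Ddit3, a transcription factor of the stress response, fell by 1.88 ± 0.53 (edgeR adjusted p = 0.049). By list, beside the same backgrounds of 9.43% enriched and 17.2% depleted, 5 of 18 initiation partners were depleted and 1 enriched, 4 of 17 stress and TOR genes enriched and 2 depleted, 2 of 15 termination and recycling genes enriched and 0 depleted, and 1 of 9 mitochondrial factors depleted and 0 enriched.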

How the data were processed

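The 4 libraries were 2 inputs and 2 anti-YTHDF2 pulldowns from P0 retina. The authors deposited raw counts per gene and FPKM values, scaled by the authors for gene length and library size. The submitters' processing notes name STAR 2.5, HTSeq and GRCm38, and the counting settings, strand included, are not given in the sources used here. Coordinates, transcript length, GC content and sequence came from GENCODE release M21 (GRCm38).

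Counts were analysed with edgeR 4.0.16 in R 4.3.3 (filterByExpr with minimum count 10 and minimum total 15, TMM, glmQLFit, glmQLFTest, Benjamini-Hochberg over all tested genes), without a replicate term. CPM means per 1000000 scaled counts. The smallest p that an exact two-sided permutation test of 2 against 2, without pairing, can give for 1 gene is 0.333. With the pairs kept it is larger. No use of molecular identifiers is named in the sources used here.

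The series design gives each replicate an input and a pulldown, so equal numbers mark a pair. Deviations of same-numbered libraries had a Spearman correlation across genes of -0.036. Fits with the replicate as a block were run as alternatives.

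Members, roles and gene lists were chosen with earlier results of these data known. Members called, 25 core factors, paralog pairs and the highest and lowest member of each role were named by rule. The GGACT search, the length classes and the use of the longest protein-coding transcript were chosen after values were seen, as were the centring of the length and GC trends (mgcv 1.9.3, basis size 8). Eif4e2, Eif2ak4 and the other members beside a sequence, and those named beside GC content, were picked by value. Other alternatives were DESeq2 1.42.0, limma 3.58.1 on log2(FPKM + 0.1) and log2(FPKM + 1), other scalings and filters, and each library left out. The scripts were tested on simulated data. In a first setting limma made no calls, and larger fold changes were then used, so that this test says little about small ones.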

Additional observations from a re-analysis of the deposited data

How the results depend on the processing

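The 8 members called lower stayed called with DESeq2, the upper quartile, TMM without abundant noncoding RNA, at least 10 counts, the exact test and the replicate block. Library size alone, no filter and log2(FPKM + 0.1) kept 7 of them, and log2(FPKM + 1) kept 6. Library size alone moved the median of all genes from -0.05 to 0.27. With the block 11 members were called, among them the 8, with Eif3a, Eif2s2 and Eif5b besides, and this block changed no other member's call at the adjusted p. Added to the fit with the trends out, the pairing changed the calls of Eif2a, Eif3a, Eif4g3 and Eif5b (lower) and Eif3i (higher). Eif4g3 was also called lower with the trends centred on the mean, at -1.66, and on the longest annotated transcript, at -1.49.

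The length and GC trends ended most calls. With them out 1 member was lower, with the block 5 lower and 1 higher, centred on the mean 2, not centred 0, and on the longest annotated transcript 3. The exact test called 14 lower. Members enriched by the study's limits numbered 1 with DESeq2, no filter, the trends out or the trends centred on the mean, 2 with the trends and block or log2(FPKM + 0.1), and 3 by library size alone or with the trends not centred. Members depleted numbered 9 with log2(FPKM + 0.1), 7 with log2(FPKM + 1) and 10 with the trends not centred. Leaving out 1 library gave 0 to 7 members higher, 0 to 24 lower, 0 to 3 enriched and 9 to 17 depleted. Other translation genes called, 4 in all, became 7 with DESeq2 or the block, 10 with the exact test, 2 with no filter or log2(FPKM + 0.1) and 0 with the trends out in every version, and 0 to 25 with 1 library left out.

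The median of the eIF2 subunits became -0.29 on log2(FPKM + 1). That of the eIF2 alpha kinases became -0.13 with the trends out, -0.10 with the block as well, -0.29 centred on the mean, -0.084 on the longest annotated transcript and 0.74 on log2(FPKM + 0.1), and ranged from 0.33 to 0.71 with 1 library left out. That of the eIF3 subunits became -0.64 with the trends out, -0.56 with the block as well, -0.53 not centred, -0.61 on the longest annotated transcript, -0.66 on log2(FPKM + 0.1) and -0.58 on log2(FPKM + 1). The causes were not tested, and the trend fits include centrings and a transcript choice added after the data were seen.

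Sign changes touched none of the 8 called members. By library size alone, the log2 fold change turned sign to 0.012 for Eef1akmt1, 0.30 for Eif2ak1, 0.34 for Eif2d, 0.21 for Eif4a2. With the length and GC trends taken out, the log2 fold change turned sign to 1.23 for Eef1akmt1, -0.25 for Eef2, -0.53 for Eef2k, 0.42 for Eif4a2, 0.057 for Eif4a3, -0.00012 for Eif4enif1, -0.43 for Eif4g1, -0.12 for Eif4g2. With the trends out and the replicate block, the log2 fold change turned sign to 1.26 for Eef1akmt1, 0.065 for Eef1g, -0.16 for Eef2, -0.53 for Eef2k, 0.37 for Eif4a2, 0.18 for Eif4a3, -0.42 for Eif4g1, -0.19 for Eif4g2. With the trends centred on the mean, the log2 fold change turned sign to 1.08 for Eef1akmt1, -0.40 for Eef2, -0.68 for Eef2k, 0.27 for Eif4a2, -0.15 for Eif4enif1, -0.59 for Eif4g1, -0.28 for Eif4g2. With the trends not centred, the log2 fold change turned sign to 1.34 for Eef1akmt1, 0.088 for Eef1g, -0.14 for Eef2, -0.42 for Eef2k, 0.057 for Eif3m, 0.026 for Eif4a1, 0.53 for Eif4a2, 0.17 for Eif4a3, -0.32 for Eif4g1, -0.011 for Eif4g2. With the trends on the longest annotated transcript, the log2 fold change turned sign to 1.27 for Eef1akmt1, 0.057 for Eef1g, -0.19 for Eef2, -0.51 for Eef2k, 0.52 for Eif4a2, 0.12 for Eif4a3, -0.40 for Eif4g1, -0.12 for Eif4g2. With 10 counts or more per library, the log2 fold change turned sign to -0.016 for Eef2. With no filter, the log2 fold change turned sign to 0.050 for Eif2ak1, 0.095 for Eif2d. On log2(FPKM + 0.1), the log2 fold change turned sign to 0.22 for Eif2ak1, 0.22 for Eif2d, 0.11 for Eif4a2. On log2(FPKM + 1), the log2 fold change turned sign to 0.12 for Eif2ak1, 0.087 for Eif2d, 0.079 for Eif4a2. By DESeq2, the log2 fold change turned sign to 0.0090 for Eif2d. With the replicate block, the log2 fold change turned sign to 0.020 for Eif2d. With 1 library left out, signs turned in ranges of -0.79 to 0.27 for Eef1akmt1, -0.78 to 0.020 for Eef1g, -0.31 to 0.53 for Eef2, -0.24 to 0.17 for Eif2ak1, -1.16 to 0.77 for Eif2ak2, -0.073 to 0.72 for Eif2b5, -0.25 to 0.28 for Eif2d, -0.33 to 0.091 for Eif4a2, -0.16 to 0.98 for Eif5, -0.70 to 2.32 for Eif5a2.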
